A study of Mus musculus with 6 samples.

Results

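The 33 genes described here carry glucose from its uptake to lactate, to glycogen and to the entry of pyruvate into the mitochondria. They were listed by name and function, not by a threshold on their values: 3 for glucose entry and phosphorylation, 8 for upper glycolysis, 6 for lower glycolysis, 6 for lactate, 5 for glycogen and 5 for the fate of pyruvate. All 33 were found among the 22086 genes of the count files, and 32 passed the filter on low counts that kept 13545 genes for testing. Slc16a3, which encodes the monocarboxylate transporter MCT4, did not, with 20, 0 and 3 counts in the Cx43FL libraries and 2, 4 and 1 in the Cx43KO libraries.

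Polysomal mRNAs were recovered from whole hippocampi of 6 weeks-old mice by TRAP, the immunoprecipitation of ribosomes that carry an eGFP-tagged L10a protein. All animals carried floxed alleles of the gene for connexin 43 (Cx43 fl/fl) and 1 copy of the Aldh1L1-RPL10aGFP transgene, a bacterial artificial chromosome that expresses the tag from the astrocyte promoter Aldh1l1. The 3 Cx43KO libraries came from mice that also carried the hGFAP-Cre transgene, and the 3 Cx43FL libraries from littermates without Cre. How many animals entered a library was not given in the sources used here, and p-values measure the spread between these libraries.

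Glycolysis splits glucose into pyruvate, which is reduced to lactate by lactate dehydrogenase or oxidised after pyruvate dehydrogenase. Astrocytes take up glucose from the blood, store most of the glycogen of the brain and release lactate through monocarboxylate transporters. Several steps are run by alternative isozymes, of which aldolase C is a classical astrocyte product and enolase 2 a classical neuronal one. Astrocytes also hold pyruvate carboxylase, which neurons largely lack.

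Gene totals were 14787303 to 15391214 counts in the Cx43FL libraries and 16056347 to 34733473 in the Cx43KO libraries, so that 3 counts stood for 0.0864 to 0.203 CPM (counts per M counts on genes) before scaling, which covers counting error only. All CPM below are scaled by TMM. Gja1, the gene for connexin 43, had 92.0, 91.7 and 82.3 CPM in Cx43FL and 87.2, 98.4 and 95.1 in Cx43KO (log2 fold change 0.08 ± 0.28, SE, adjusted p = 0.949, edgeR). A lower level of Gja1 was thus not seen in the libraries labelled Cx43KO, and the groups below are as labelled. The counts cover the whole transcript and do not show in which exon a read lies. On the first principal component, which held 37.9% of the variance, Cx43KO replicate 1 stood apart from the other libraries. It lay at 141.3, and the other 5 libraries lay between -62.3 and 0.36. On the second component, which held 25.4%, Cx43FL replicate 2 lay at 97.1 and Cx43KO replicate 3 at -78.8. The remaining libraries lay between -37.5 and 21.3 on it. The astrocyte markers, 12 genes such as Slc1a2, Slc1a3 and Aqp4, were detected in all libraries and summed to 22453 to 25850 CPM in Cx43FL, against 12503, 22420 and 33114 in Cx43KO replicates 1 to 3. Libraries were multiplexed by 3, and the numbers that the deposited tables carry run in a separate series for each genotype. Which libraries were sequenced together was not given in the sources used here, and a batch that followed these numbers cannot be told apart from the genotypes.

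The glycolytic mRNAs of the Cx43FL libraries were dominated by aldolase C. Aldoc (ENSMUSG00000017390, GRCm38 chromosome 11, 78322968 to 78327781, plus strand), which cleaves fructose 1,6-bisphosphate, had 2415 ± 38.4 CPM per kb of transcript (SD, n = 3 libraries). Ldhb, the heart-type lactate dehydrogenase subunit, followed with 903 ± 97.7 CPM per kb, and Aldoa, the widely expressed aldolase, with 540 ± 72.3 CPM per kb. The ranges of these 3 genes did not overlap over the Cx43FL libraries, and none overlapped with the gene next below it. They also held the top 3 places in the Cx43KO means, in the same order, at 1862 ± 1023, 814 ± 382 and 627 ± 101 CPM per kb.

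Below them, Ugp2 and Pdk2 had 227 ± 42.8 and 224 ± 27.8 CPM per kb in Cx43FL, and their ranges overlapped. Ugp2 makes UDP-glucose, the substrate of glycogen synthesis, and Pdk2 is a kinase that inhibits pyruvate dehydrogenase. Ldha at 175 ± 8.81 and Tpi1 at 170 ± 3.66 CPM per kb also overlapped with each other. From Pfkm at 138 ± 13.8 down to Gpi1 at 55.7 ± 9.09 CPM per kb, each neighbour in the order overlapped with the next. This stretch held Pygb, the brain glycogen phosphorylase, at 133 ± 15.1 and Pkm, the pyruvate kinase, at 131 ± 13.6 CPM per kb.

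Genes of glucose entry and the monocarboxylate transporters stood at the low end of the order. Genes of glycolysis, glycogen and pyruvate fate, such as Pfkl, Gapdh, Gys1 and Pdk4, stood there too. Slc2a1, the glucose transporter GLUT1, had 16.0 ± 2.63 CPM per kb in Cx43FL, and Hk1, the main hexokinase of the brain, 11.9 ± 5.70. The transporters Slc16a1 (MCT1) and Slc16a7 (MCT2) had 5.84 ± 0.657 and 4.86 ± 1.64 CPM per kb, and their ranges overlapped. Pcx, the pyruvate carboxylase, had 2.94 ± 1.13, Hk2 0.669 ± 0.512 and Slc16a3 0.211 ± 0.298 CPM per kb.

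**Figure D1:**
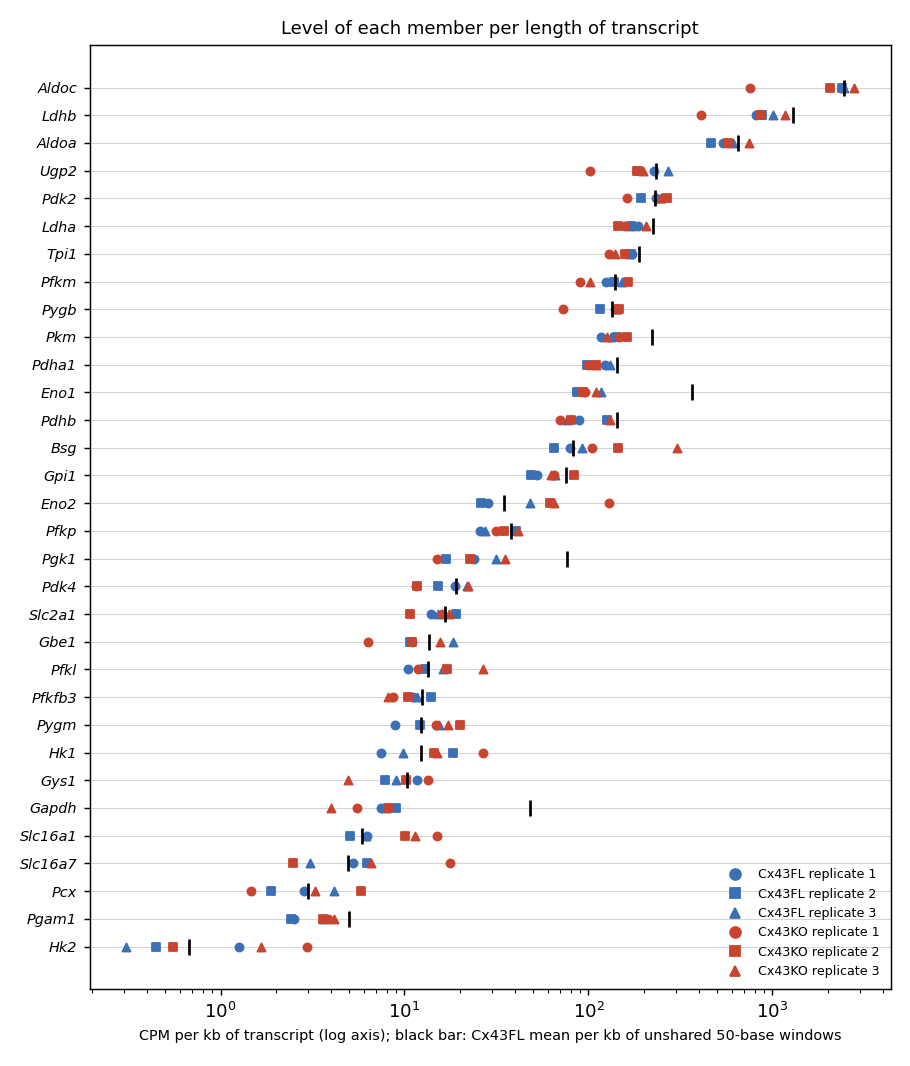
Level of the 32 tested genes in CPM per kb of transcript on a log axis, 1 point per library, with a black bar for the Cx43FL mean per kb of those 50-base windows that occur in no other gene. Aldoc lies at the top with a Cx43FL mean of 2415 and Hk2 at the bottom with 0.669, and Cx43KO replicate 1 lies leftmost for Aldoc and Ldhb.

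Gapdh, the dehydrogenase often used as a loading reference, stood only in place 27, with 8.11 ± 0.774 CPM per kb in Cx43FL. The authors removed reads that matched the genome more than once, and the reads were 50 bases long. Among the windows of 50 bases of the Gapdh transcript, 82.5% also occurred in transcripts of other genes, 222 in number, of which 213 were annotated pseudogenes. The share was 72.2% for Eno1, 68.0% for Pgk1, 41.5% for Pgam1 and 39.3% for Pkm, and it was 0% for Aldoc, Slc16a1, Slc16a3, Slc16a7, Bsg, Hk2, Pfkm, Gbe1, Pdk2 and Pcx.

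Within coding sequence, all 731 windows of Gapdh that lie in 1 exon, all 723 of Pgk1 and all 566 of Pgam1 occurred elsewhere, so that a read inside these coding exons could not be assigned to the gene by its sequence alone. One window each is printed to show the contrast, 5′ to 3′ on the coding strand, without capitals because the whole window is the compared part. The Gapdh window (chr6:125162898-125162947, minus strand, GRCm38) was found in 84 other genes and the Eno1 window (chr4:150245115-150245164, plus strand) in 5. The windows of Aldoc (chr11:78325333-78325382, plus strand) and Eno2 (chr6:124763867-124763916, minus strand) were found in no other gene, and are the middle ones of their unshared coding windows.
Gapdh: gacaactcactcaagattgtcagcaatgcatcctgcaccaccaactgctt
Eno1: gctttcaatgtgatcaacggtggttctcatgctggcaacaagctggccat
Aldoc: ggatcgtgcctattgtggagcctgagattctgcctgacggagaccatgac
Eno2: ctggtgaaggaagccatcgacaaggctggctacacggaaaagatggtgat

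**Figure D2:**
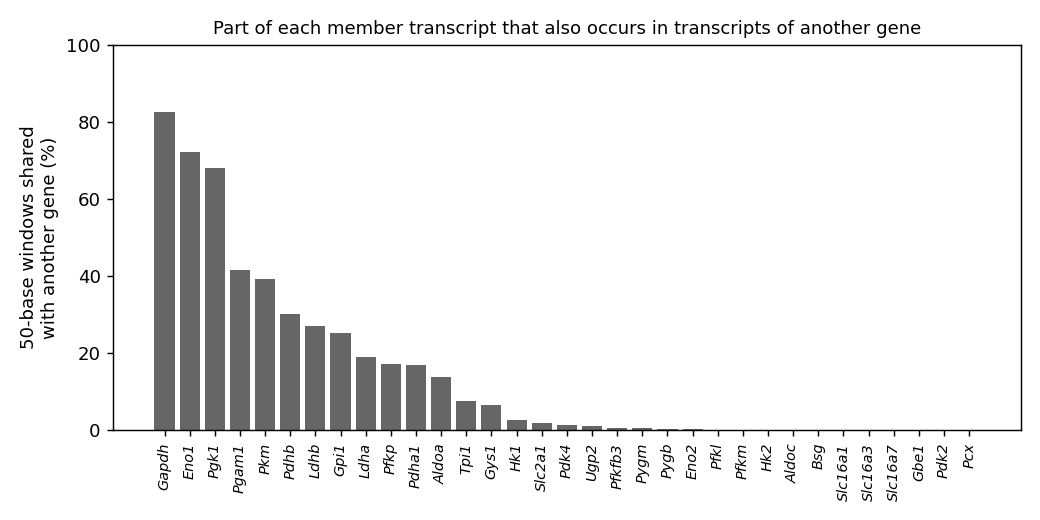
Percentage of the 50-base windows of each representative transcript that also occur in a transcript of another gene, 1 bar per gene. Gapdh at 82.5%, Eno1 at 72.2% and Pgk1 at 68.0% lie above the rest, and 10 genes lie at 0%.

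Counted per kb of the windows that occur in no other gene, a scale added after the counts had been seen, the order of the levels changed for the genes with pseudogenes. Eno1 went from place 12 to place 4, with 366 CPM per kb of unshared windows in Cx43FL. Gapdh went from place 27 to place 17, Pgk1 from 18 to 15 and Pkm from 10 to 8. Aldoc, Ldhb and Aldoa stayed in places 1 to 3, with 2458, 1286 and 648 CPM per kb. The levels of Gapdh, Pgk1, Pgam1 and Eno1 are therefore uncertain, while the comparison of 1 gene between genotypes uses the same windows in each library.

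Strand was not stated for the counting, and reads of overlapping genes cannot be told apart without it. Exons of genes on the opposite strand covered 21.2% of the Pdha1 transcript (Map3k15), 18.0% of Pfkp (Pitrm1), 12.3% of Gpi1 (Gm26762) and 8.43% of Gys1 (Ruvbl2). Gm49759, on the same strand, covered 8.18% of Pkm. Eno2, Bsg, Slc16a1, Aldoc and Ldhb had no such overlap.

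Between genotypes, none of the 32 tested genes was called, with Benjamini-Hochberg adjusted p-values of 0.490 to 0.999 from edgeR's quasi-likelihood test. A call required an adjusted p below 0.05 and a mean normalised count above 50 in the higher group, which 0.00738% of all tested genes met as higher in Cx43KO and 0.0% as lower. At an unadjusted p below 0.05 with the same count minimum, 3 of the 32 were higher in Cx43KO, where 5.63% of all tested genes were, and 0 were lower, where 2.64% of all were. These 3 were Eno2, Bsg and Slc16a1. DESeq2 also called none of the 32, with a lowest adjusted p of 0.0794 without a prior and 0.0843 with its normal prior, both for Eno2.

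The log2 fold change was positive for 18 genes and negative for 14. Its median over the 32 was 0.01, against 0.07 over all tested genes, and it ran from -0.49 for Ugp2 to 1.36 for Hk2. The median SE was 0.37. The 3 Cx43KO libraries lay all above the 3 Cx43FL libraries for Pgam1, Eno2, Slc16a1 and Bsg, 4 of 32 where 8.08% of all tested genes did so. They lay all below for Tpi1 and Pfkfb3, 2 of 32 where 7.45% of all did so.

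**Figure D3:**
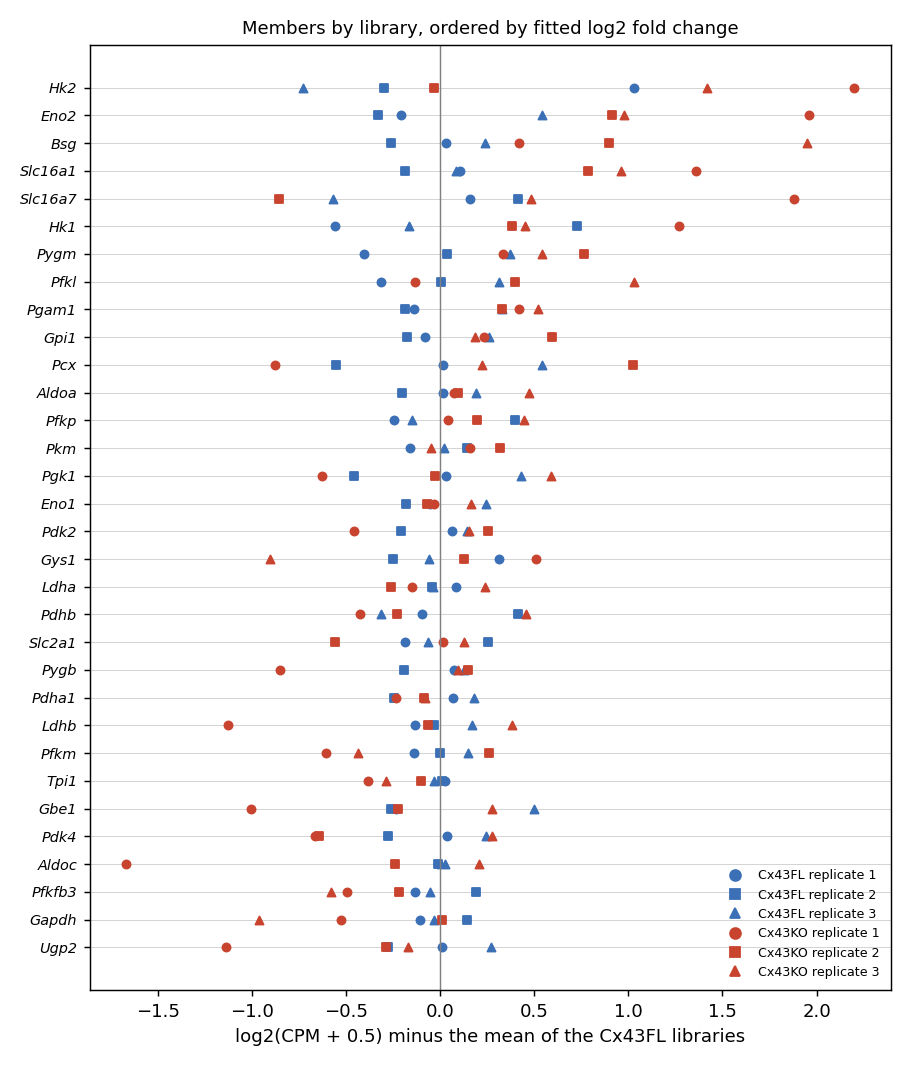
Difference of each library from the Cx43FL mean on the log2(CPM + 0.5) scale for the 32 tested genes, ordered by fitted log2 fold change, 1 point per library. The Cx43KO points of Eno2, Bsg, Slc16a1 and Pgam1 all lie right of the Cx43FL points, and Aldoc of Cx43KO replicate 1 lies at -1.67.

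The Cx43KO libraries differed in how many of the 32 genes lay below or above the Cx43FL range. The median difference of the genes from the Cx43FL mean, on the log2(CPM + 0.5) scale, was -0.0360, -0.181 and 0.145 in Cx43FL. In Cx43KO replicates 1 to 3 it was -0.145, 0.0520 and 0.255. In replicate 1, 15 of the 32 genes lay below every Cx43FL library and 9 above, where 36.6% and 37.9% of all tested genes did so. In replicate 2 the numbers were 8 below and 12 above, against 27.5% and 28.7% of all tested genes. In replicate 3 they were 5 below and 17 above, against 29.1% and 30.7% of all tested genes. Summed over the 32 tested genes, the level was 12941, 12737 and 13991 CPM in Cx43FL and 7402, 12513 and 15396 CPM in Cx43KO. Aldoc alone made up 51.5%, 52.4% and 49.0% of that sum in Cx43FL, and 28.5%, 45.6% and 50.3% in Cx43KO.

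Among the genes of glucose entry, none of the 3 passed the test, and 2 had a positive log2 fold change. Hk1, with the highest mean CPM of the group over the 6 libraries though not the highest level per kb, had 31.9, 78.3 and 41.9 CPM in Cx43FL and 114, 61.7 and 64.6 in Cx43KO, and the groups overlapped. Its log2 fold change was 0.66 ± 0.42 (SE). Hk2, the insulin-regulated hexokinase, was near the low end of detection in some libraries, with 6.92, 2.45 and 1.69 CPM in Cx43FL and 16.2, 3.05 and 9.20 in Cx43KO. Its log2 fold change of 1.36 ± 0.91 (SE) was the largest of the 32, and the groups overlapped. Slc2a1 lay between 35.0 and 62.0 CPM in all 6 libraries (-0.12 ± 0.35, SE).

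In upper glycolysis, none of the 8 genes passed the test and the log2 fold changes ran from -0.44 to 0.49. Aldoc had 6659, 6674 and 6851 CPM in Cx43FL and 2113, 5702 and 7744 in Cx43KO. The Cx43FL libraries were close together, and the Cx43KO libraries spread from far below to above them. The log2 fold change of -0.38 ± 0.42 (SE) became -0.01 without Cx43KO replicate 1 and -0.78 without Cx43KO replicate 3. The summed astrocyte markers followed the same order in Cx43KO, lowest in replicate 1 and highest in replicate 3. The sum was mostly Slc1a2 and Glul, at 14574 and 7418 CPM in Cx43KO replicate 3. In that library Slc1a2, Slc1a3, Aqp4, Gfap, Atp1b2 and Gja1 lay above the Cx43FL range, and the other markers did not. Of the 12 markers, 2, Glul and Gjb6, lay below all Cx43FL libraries in every Cx43KO library, where 7.45% of all tested genes did so. None lay above. The part of these markers in the Aldoc values was not tested. In mRNAs recovered by TRAP, fewer astrocytes, less mRNA per astrocyte and more mRNA from untagged ribosomes cannot be told apart.

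Pfkfb3 and Tpi1 were the 2 genes whose Cx43KO libraries all lay below the Cx43FL range. Pfkfb3, which makes the phosphofructokinase activator fructose 2,6-bisphosphate, had 52.4, 65.7 and 55.4 CPM in Cx43FL and 40.6, 49.3 and 38.3 in Cx43KO. Its log2 fold change was -0.44 ± 0.33 (SE, adjusted p = 0.702, edgeR). Tpi1, which interconverts the triose phosphates, had 277, 274 and 266 CPM in Cx43FL and 208, 254 and 223 in Cx43KO, a log2 fold change of -0.26 ± 0.25 (SE, adjusted p = 0.773, edgeR). The exact 2-sided permutation test gave p = 0.1 for both, the smallest p that 3 against 3 libraries allow.

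The remaining genes of this group overlapped between genotypes. Pfkm, the muscle-type phosphofructokinase and the highest in CPM of its 3 isozymes, had 253 to 463 CPM over the 6 libraries, and Pfkp, the platelet type, had 106 to 172. Pfkl, the liver type, had 38.7, 48.5 and 60.2 CPM in Cx43FL and 44.0, 63.9 and 99.2 in Cx43KO (0.49 ± 0.38, SE). Aldoa had 705 to 923 CPM in Cx43FL and 853 to 1123 in Cx43KO. Gpi1, the glucose 6-phosphate isomerase, had 141 to 190 and 181 to 241 CPM.

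In lower glycolysis, 5 of 6 log2 fold changes were positive, and that of Eno2 stood far above the others. Eno2 (ENSMUSG00000004267, chromosome 6, 124760055 to 124769673, minus strand) had 79.5, 73.1 and 134 CPM in Cx43FL and 359, 173 and 181 CPM in Cx43KO. Every Cx43KO library was above every Cx43FL library, and replicate 1 was the highest. The log2 fold change was 1.32 ± 0.38 (SE, unadjusted p = 0.0052, adjusted p = 0.490, edgeR). Without Cx43KO replicate 1 it was 0.89, and it reached 1.64 without Cx43FL replicate 3.

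Markers of neurons, in which Eno2 is the prevailing enolase, are given beside it. The 13 neuronal markers, Eno2 left out, summed to 2609, 3122 and 3253 CPM in Cx43FL and to 7885, 3285 and 4722 CPM in Cx43KO. The sum of Cx43KO replicate 2 was close to the highest Cx43FL sum. Of the 13, 3 were above all Cx43FL libraries in every Cx43KO library, where 8.08% of all tested genes were. None was below, the others overlapped between genotypes, and none was at 0 in any library. The 3 were Rbfox3, Camk2a and Syn1, and Camk2a had 401, 403 and 541 CPM in Cx43FL and 2469, 715 and 747 in Cx43KO. Map2 was not above the Cx43FL range in any Cx43KO library. The part of these markers in the Eno2 difference was not tested.

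The other genes of lower glycolysis overlapped between genotypes, apart from Pgam1. Pgam1, the phosphoglycerate mutase, had 4.48, 4.31 and 6.38 CPM in Cx43FL and 6.83, 6.39 and 7.35 in Cx43KO (0.44 ± 0.74, SE), and the gap between the groups was narrow. Pkm, with the highest mean CPM of this group though below Eno1 per kb of unshared windows, had 238, 293 and 270 CPM in Cx43FL and 297, 332 and 257 in Cx43KO. Its isoforms were not separated. Gapdh had 10.6, 12.7 and 11.2 CPM in Cx43FL and 7.82, 11.6 and 5.65 in Cx43KO (-0.46 ± 0.62, SE). Eno1, the ubiquitous enolase, had 176 to 236 CPM over all libraries and Pgk1, the phosphoglycerate kinase, 27.3 to 63.9.

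In the lactate group, the log2 fold changes of Bsg, Slc16a1 and Slc16a7 were positive, those of Ldha and Ldhb were negative, and none passed the adjusted test. Bsg encodes basigin, the membrane glycoprotein that carries MCT1 and MCT4 to the cell surface. Bsg (ENSMUSG00000023175, chromosome 10, 79704491 to 79711969, plus strand) had 100.3, 81.9 and 116 CPM in Cx43FL and 132, 183 and 381 CPM in Cx43KO. All Cx43KO libraries were above all Cx43FL libraries, with replicate 3 highest. The log2 fold change was 1.22 ± 0.39 (SE, unadjusted p = 0.010, adjusted p = 0.538, edgeR), and it was 0.66 without Cx43KO replicate 3 (unadjusted p = 0.063, edgeR) and 1.50 without Cx43KO replicate 1.

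Slc16a1 (ENSMUSG00000032902, chromosome 3, 104638668 to 104658462, plus strand) encodes MCT1, a proton-coupled carrier of lactate and pyruvate. It had 27.7, 22.5 and 27.3 CPM in Cx43FL and 66.8, 44.7 and 50.5 CPM in Cx43KO. The groups did not overlap, and the Cx43FL libraries lay within a narrow range. The log2 fold change was 1.06 ± 0.37 (SE, unadjusted p = 0.0148, adjusted p = 0.540, edgeR), and it stayed between 0.88 and 1.18 when each library was left out in turn.

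Bsg and Slc16a1 are also known from endothelium and epithelia, and the markers of other cells differed in how they lay between genotypes. The 7 markers of choroid plexus and ependyma summed to 9864, 468 and 15247 CPM in Cx43FL and to 32764, 26163 and 21966 CPM in Cx43KO, mostly Ttr, and 5 of the 7 were above all Cx43FL libraries in every Cx43KO library. The 10 endothelial markers summed to 9.75 to 13.4 CPM in Cx43FL and to 16.0 to 24.9 CPM in Cx43KO, with Tek at 0 in 5 libraries and Cldn5 at 3.85 CPM or less. Of the 10, 1 was above and 1 below in every Cx43KO library, where 8.08% of all tested genes were above and 7.45% below. The 12 microglial markers summed to 29.5 to 54.5 and 99.0 to 183 CPM, and 5 of the 12 were above in every Cx43KO library. For oligodendrocytes, 9 markers summed to 599 to 1021 and 619 to 2672 CPM, the highest in Cx43KO replicate 1 and the others within the Cx43FL range. The 5 markers of oligodendrocyte precursors summed to 185 to 254 and 181 to 338 CPM, and overlapped. Among the Cx43KO libraries, Bsg was highest where the choroid plexus sum was lowest, in replicate 3. The microglial and endothelial sums were also highest in that library. Both of these sums were lowest in Cx43KO replicate 2, whereas Bsg was lowest in Cx43KO replicate 1, so neither had the order of Bsg. Over the Cx43FL libraries, Bsg and the choroid plexus sum had the same order. Slc16a1 was lowest in Cx43FL replicate 2 and highest in Cx43KO replicate 1, as the choroid plexus sum was. Between Cx43FL replicates 1 and 3, and between Cx43KO replicates 2 and 3, Slc16a1 and that sum ran in opposite order. The neuronal and oligodendrocyte sums were also highest in Cx43KO replicate 1. The part of these markers in the Bsg and Slc16a1 differences was not tested.

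**Figure D4:**
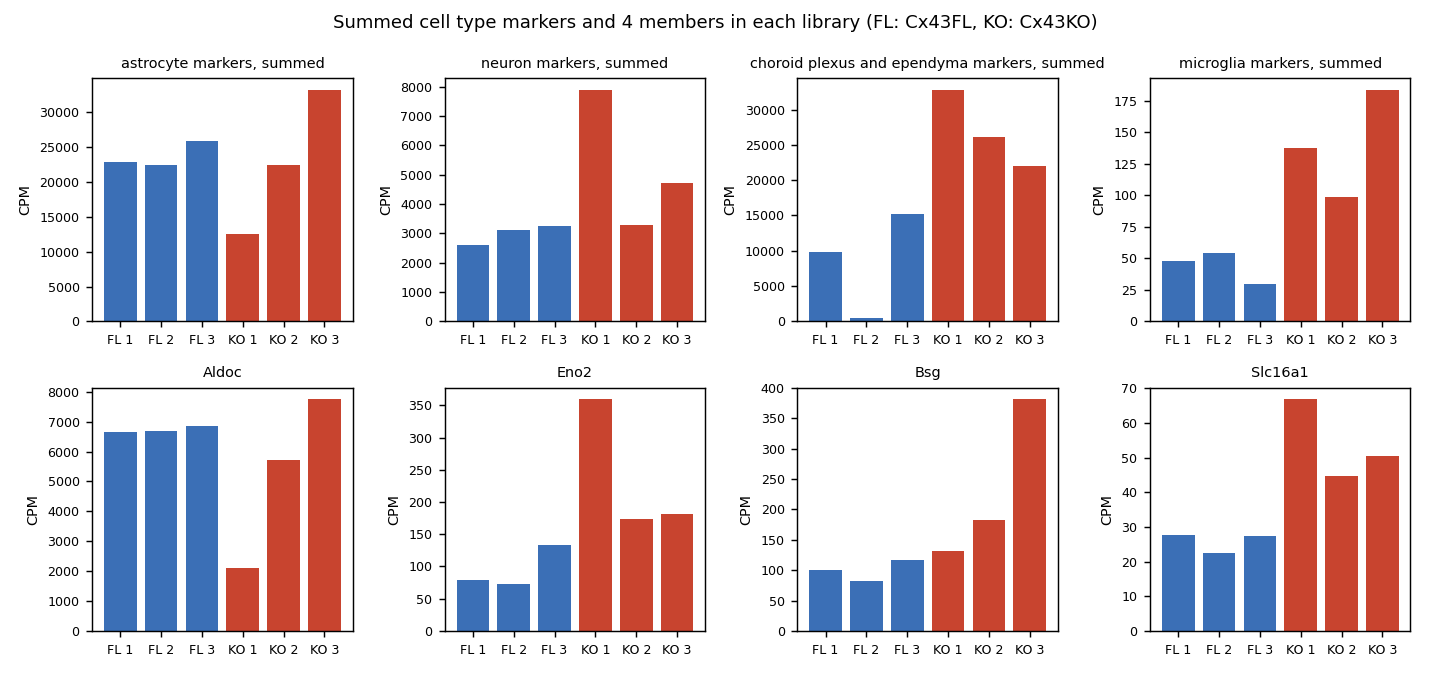
Summed CPM of the astrocyte, neuron, choroid plexus and ependyma, and microglia markers (upper row) and CPM of Aldoc, Eno2, Bsg and Slc16a1 (lower row), 1 bar per library, axes starting at 0. Cx43KO replicate 1 has the lowest astrocyte sum (12503) and Aldoc level (2113) and the highest neuron sum (7885) and Eno2 level (359).

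Slc16a7 encodes MCT2, a high-affinity carrier best known from neurons. It had 12.6, 15.2 and 7.42 CPM in Cx43FL and 42.8, 5.99 and 16.0 in Cx43KO, with Cx43KO replicates both highest and lowest. Its log2 fold change of 0.88 ± 0.70 (SE) became -0.11 without Cx43KO replicate 1. Ldhb had 1068, 1148 and 1318 CPM in Cx43FL and 536, 1122 and 1527 in Cx43KO (-0.15 ± 0.36, SE), low in Cx43KO replicate 1 as Aldoc was. Ldha, the muscle-type subunit, had 269 to 294 CPM in Cx43FL and 231 to 327 in Cx43KO.

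In glycogen metabolism, none of the 5 genes passed the test and all overlapped between genotypes. Ugp2, with the highest mean CPM, had 606, 496 and 726 CPM in Cx43FL and 273, 493 and 534 in Cx43KO. Its log2 fold change of -0.49 ± 0.32 (SE), the lowest of the 32, was -0.25 without Cx43KO replicate 1. Pygb had 542, 451 and 562 CPM in Cx43FL and 286, 572 and 551 in Cx43KO, and only replicate 1 of Cx43KO lay below the Cx43FL range. Pygm, the muscle-type phosphorylase, had 25.5, 34.8 and 44.0 CPM in Cx43FL and 42.9, 57.9 and 49.6 in Cx43KO (0.53 ± 0.37, SE). Gys1, the glycogen synthase, lay between 18.1 and 49.2 CPM, and the branching enzyme gene Gbe1 between 18.9 and 54.6 CPM.

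For the fate of pyruvate, the 5 genes also overlapped between genotypes. Pdk2, with the highest mean CPM, had 524, 434 and 554 CPM in Cx43FL and 365, 597 and 558 in Cx43KO (0.01 ± 0.29, SE). Pdk4, the kinase induced by fasting, had 65.8, 52.7 and 75.9 CPM in Cx43FL and 40.2, 40.8 and 77.6 in Cx43KO (-0.29 ± 0.37, SE). Pdha1 and Pdhb, the subunits of the first enzyme of the pyruvate dehydrogenase complex, had 280 to 375 and 106 to 197 CPM over the 6 libraries. Pcx had 7.76 to 17.1 CPM in Cx43FL and 6.08 to 24.2 in Cx43KO.

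Shares of isozymes within a library do not depend on the scaling of that library, and 8 were compared per kb of transcript. Of these, 3 did not overlap between genotypes, each with p = 0.1 by the exact permutation test, the smallest possible, and an adjusted p of 0.267 over the 8. Eno2 made up 23.1%, 23.2% and 29.1% of Eno1 and Eno2 in Cx43FL and 57.2%, 39.8% and 37.1% in Cx43KO, a mean difference of 19.6 percentage points. Per kb of unshared windows the difference was 10.3 points, with means of 8.54% ± 1.45 for Cx43FL and 18.8% ± 7.10 for Cx43KO (SD, n = 3 libraries).

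Aldoc made up 81.5%, 83.7% and 80.1% of Aldoa and Aldoc in Cx43FL and 57.3%, 78.2% and 78.9% in Cx43KO. Its mean share was 10.3 points lower in Cx43KO in a group whose replicate 1 lay far from the other replicates, and 3.25 points lower without that library. With the counts of all transcripts of a gene added up, the Aldoc shares of the genotypes overlapped (exact permutation p = 0.2). Pygm made up 6.02%, 9.48% and 9.63% of Pygb and Pygm in Cx43FL and 17.0%, 12.1% and 10.9% in Cx43KO, which was 4.95 points higher and 3.13 points higher without Cx43KO replicate 1.

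The other 5 shares overlapped, with exact permutation p-values of 0.2 to 0.8. Ldha made up 16.3% ± 2.01 of both lactate dehydrogenase subunits in Cx43FL, against 19.0% ± 7.48 in Cx43KO (SD, n = 3 libraries), with 27.7% in Cx43KO replicate 1. Pfkp made up 17.1% ± 3.67 and 21.4% ± 4.60 of the phosphofructokinases. Pdk4 made up 7.62% ± 0.442 and 6.36% ± 2.02 of Pdk2 and Pdk4. The share of Hk2 in the hexokinases (6.61% ± 6.76 and 7.86% ± 3.60) and that of Slc16a7 in the transporters (43.9% ± 11.2 and 36.7% ± 17.2) varied widely between libraries of 1 genotype.

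**Figure D5:**
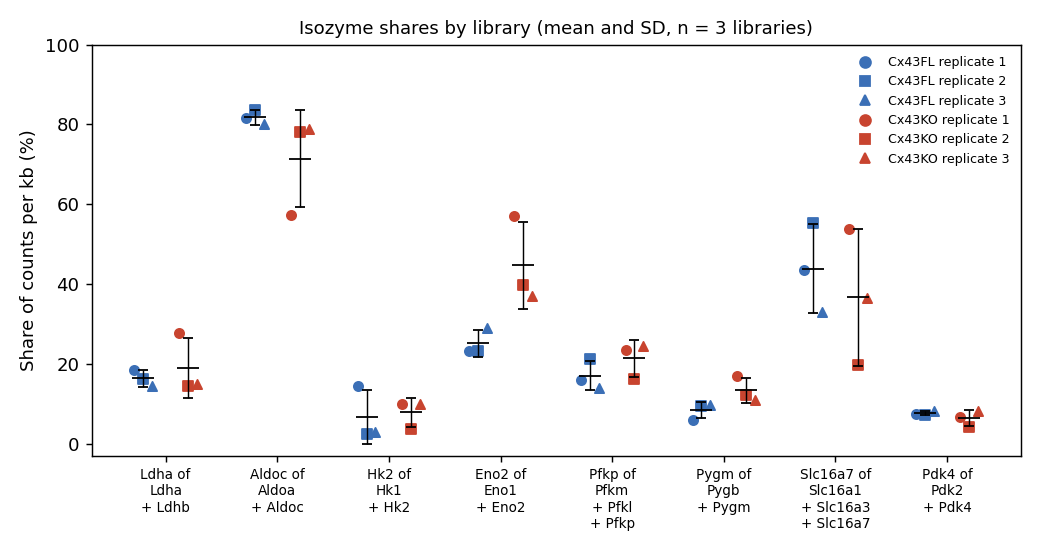
Share of 1 isozyme in its group, in percent of counts per kb, 1 point per library with mean and SD over 3 libraries of each genotype. The Eno2 and Pygm shares of Cx43KO lie above and the Aldoc shares below all Cx43FL points, and Cx43KO replicate 1 lies farthest out in each of these 3.

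Promoter sequences were at hand for 31 of the 33 genes (RefSeq, GRCm38.p6, 250 bases before to 50 after the start of transcription), Slc16a7 and Bsg being without an entry. The motif ACGTG, the core to which hypoxia-inducible factors and some other basic helix-loop-helix factors bind, was searched on both strands. It was in 18 of the 31 promoters (58.1%), in 25.4% of the promoters of tested genes and in 19.6% of all 32851 promoters. The GC box GGGCGG, searched in the same way, was in 64.5% of the 31 and in 64.6% of the promoters of tested genes. The median GC content was 61.7% in the 31 and 61% in the promoters of tested genes.

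The promoters of Ldha, Slc16a1 and Eno2 are printed because they hold many matches, several and none, 5′ to 3′ on the strand of the gene, with ACGTG or its complement CACGT in capitals. The palindrome CACGTG counts on both strands. Ldha (chr7:46845554-46845853, plus strand) held the most matches, 5, and had a log2 fold change of -0.04. Slc16a1 (chr3:104638414-104638713, plus strand) held 3 and had 1.06. Eno2 (chr6:124769624-124769923, minus strand) held none and had 1.32. Among the promoters not printed, that of Hk2 held 2 matches, with a log2 fold change of 1.36, and that of Eno1 none, with 0.01. Whether matches and fold changes were related over the 31 promoters was not tested. A match is a run of letters and not a binding site shown in these cells.
Ldha: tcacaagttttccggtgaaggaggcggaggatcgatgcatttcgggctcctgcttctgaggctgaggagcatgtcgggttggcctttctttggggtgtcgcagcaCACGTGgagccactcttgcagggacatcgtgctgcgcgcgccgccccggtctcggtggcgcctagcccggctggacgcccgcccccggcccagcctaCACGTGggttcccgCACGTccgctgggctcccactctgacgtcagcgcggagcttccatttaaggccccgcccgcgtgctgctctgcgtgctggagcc
Slc16a1: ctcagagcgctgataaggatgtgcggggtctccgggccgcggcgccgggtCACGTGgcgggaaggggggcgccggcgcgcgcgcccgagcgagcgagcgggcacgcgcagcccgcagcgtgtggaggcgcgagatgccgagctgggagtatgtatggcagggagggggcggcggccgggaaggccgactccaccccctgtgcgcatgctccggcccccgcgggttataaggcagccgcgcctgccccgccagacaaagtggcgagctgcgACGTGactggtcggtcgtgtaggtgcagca
Eno2: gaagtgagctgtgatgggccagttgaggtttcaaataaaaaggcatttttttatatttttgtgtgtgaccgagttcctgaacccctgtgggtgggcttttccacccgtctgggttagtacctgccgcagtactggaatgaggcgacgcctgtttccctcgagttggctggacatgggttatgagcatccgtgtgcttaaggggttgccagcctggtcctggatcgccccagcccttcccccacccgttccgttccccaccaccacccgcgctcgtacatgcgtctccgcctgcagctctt

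Further genes of these pathways, 74 taken from a list, were tested in the same fit. Of the 61 tested, 29 were higher and 32 lower in the Cx43KO means, the median log2 fold change was -0.04, and none was called. At an unadjusted p below 0.05 with the same count minimum, 5 were higher in Cx43KO, where 5.63% of all tested genes were. In the same way 1 was lower, where 2.64% of all were. Every Cx43KO library was above every Cx43FL library for 8 of the 61 and below for 3, beside 8.08% and 7.45% of all tested genes.

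Among the transporters of this list, 2 sugar carriers were among the 5. Slc2a12 (GLUT12) had 29.4, 23.1 and 25.1 CPM in Cx43FL and 70.4, 46.9 and 67.7 in Cx43KO, without overlap (1.25 ± 0.36, SE, adjusted p = 0.490, edgeR). Slc2a13, a myo-inositol carrier, had 22.0, 16.1 and 25.1 and 83.0, 24.9 and 44.3 CPM (1.27 ± 0.49, SE, adjusted p = 0.556, edgeR). Mpc2, a subunit of the mitochondrial pyruvate carrier, had 263, 384 and 234 CPM in Cx43FL and 125, 208 and 215 in Cx43KO, all below, with a log2 fold change of -0.68 ± 0.32 (SE, adjusted p = 0.600, edgeR).

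The others past the unadjusted threshold came from glycogen breakdown, the pentose phosphate pathway and the phosphoglycerate mutase family. Gaa, the lysosomal glucosidase that degrades glycogen, had 38.4, 65.4 and 53.9 CPM in Cx43FL and 119, 77.9 and 126 in Cx43KO, without overlap (1.03 ± 0.34, SE). H6pd, the hexose 6-phosphate dehydrogenase of the endoplasmic reticulum, had 6.32, 14.5 and 4.30 and 40.5, 17.4 and 18.1 CPM (1.60 ± 0.64, SE). Pgam5, a mitochondrial phosphatase of the mutase family, had 53.8, 123 and 53.6 and 39.0, 39.1 and 44.0 CPM (-0.91 ± 0.40, SE). Stbd1, which binds glycogen, rested on 1 library, at 27.0 CPM in Cx43KO replicate 2 and at 2.96 CPM or less in the other 5.

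By mean CPM, without division by length, the highest of the 74 were Dlat, Gsk3b and Ppp1r3c, and each overlapped between genotypes. Dlat, the acetyltransferase of the pyruvate dehydrogenase complex, had 609 to 676 CPM in Cx43FL and 336 to 820 in Cx43KO. Gsk3b, a kinase that inhibits glycogen synthase, had 364 to 573 and 350 to 563 CPM. Ppp1r3c, which targets a phosphatase to glycogen, had 496, 580 and 540 CPM in Cx43FL and 230, 278 and 527 in Cx43KO (-0.64 ± 0.34, SE, adjusted p = 0.609, edgeR).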

How the data were processed

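The authors converted base calls with bcl2fastq 1.8.4, mapped filtered reads with STAR on mm10, removed reads that matched more than once and counted with HTSeq 0.5.3. Per the labels these are polysomal mRNAs of 3 Cx43FL and 3 Cx43KO libraries, and the deposited values are raw counts on Ensembl transcripts, not normalized. The tests had been planned for genes. Of the transcripts, 73157 were matched to the GRCm38 annotation and 2309 (1.60% to 1.78% of the counts) were not. For each of 22086 genes, the transcript with the most counts over the 6 libraries was used. Reads that lie in several transcripts of a gene count on each of them, so that transcript totals (33423491 to 77030398) exceed gene totals.

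Cx43KO was tested against Cx43FL in edgeR 4.0.16 under R 4.3.3 (TMM, filterByExpr by genotype, quasi-likelihood F test, genotype alone in the model), on all genes, with Benjamini-Hochberg adjustment over all 13545 tested. The SE of a log2 fold change was its absolute value over the root of F. The edgeR fit was first tested on simulated data. Single values and shares were compared by an exact 2-sided permutation test (scipy 1.17.1), for genes on log2(CPM + 0.5). Alternatives were other size factors and filters, DESeq2 1.42.0, the replicate number as a block, added-up transcripts and leaving out each library. Values in every library were given for the gene of each group with the highest mean CPM, the 5 largest rises and falls, the genes whose genotypes did not overlap, and the isozymes whose shares did not. Of the 74 further genes, those past the unadjusted p and the 3 highest in mean CPM were named. Mpc2, Gpd1 and Gpd2 were named after their values were seen. The genes and lists were chosen with earlier results of these data known. Sequences came from the transcripts and RefSeq promoters of GRCm38.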

Additional observations from a re-analysis of the deposited data

How the results depend on the processing

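None of the 32 tested genes was called under any of the alternatives, and 3 were higher at the unadjusted p. Over all genes, 1 was called higher and 0 lower in Cx43KO. The higher count was 0 with at least 10 counts in every library and with transcripts added up, 118 with DESeq2 without a prior on the same genes, 99 with its normal prior and 763 at the unadjusted p. It ran from 0 to 11 when each library was left out, 11 without Cx43KO replicate 1. The lower count was 19 and 14 with DESeq2 without and with the prior and 358 at the unadjusted p. Same-numbered libraries did not deviate together (correlations 0.0016, -0.025 and -0.041), and the fit with a replicate block had 2 genes called higher, with a lowest adjusted p of 0.647 among the 32. Of 256 log2 fold changes of the 32 under these alternatives, 243 kept their sign. The 13 that did not lay near 0: 0.021 for Slc2a1 (transcripts added up), -0.036 and -0.022 for Pgk1 (upper-quartile factors, block), -0.052, -0.0022 and -0.0060 for Eno1 (upper-quartile factors, the count minimum, transcripts added up), -0.075, -0.0094, -0.090 and -0.0075 for Gys1 (upper-quartile factors, the count minimum, block, transcripts added up), and -0.042, -0.0032 and -0.018 for Pdk2 (upper-quartile factors, the count minimum, block). The cause was not tested. With each library left out, 20 genes kept their sign. The ranges of the 12 others were -0.091 to 0.14 for Eno1, -0.62 to 0.023 for Gbe1, -0.33 to 0.31 for Gys1, -0.21 to 0.055 for Ldha, -0.51 to 0.16 for Ldhb, -0.31 to 0.63 for Pcx, -0.36 to 0.17 for Pdhb, -0.13 to 0.19 for Pdk2, -0.35 to 0.27 for Pgk1, -0.31 to 0.11 for Pygb, -0.11 to 1.32 for Slc16a7 and -0.26 to 0.060 for Slc2a1. The Eno2 share differed by 10.3 points per kb of unshared windows. Windows unique in the genome were not run, because the annotation and transcripts alone were used.

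With 3 libraries a group, the median SE of the 32 log2 fold changes was 0.37, and the smallest difference that could be called was not determined. Hk2, Pgam1, Gapdh and Slc16a3 were limited by low counts as well. Libraries were amplified from little RNA, and markers of other cell types had counts. Whether these came from untagged ribosomes was not tested.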
